A study of Rattus norvegicus with 28 samples.

Results

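Lungs of rats ventilated after an acute injury (group acute_VCV) were compared with lungs of rats ventilated after a chronic injury (group chronic_VCV). VCV stands for volume-controlled ventilation, in which every breath delivered the same tidal volume. The members of the comparison were the 3 libraries labelled acute_VCV and the 3 labelled chronic_VCV, 6 of 28 libraries in all, and every one of the 17002 genes in the deposited table. Genes with a mean of at least 10 normalised reads over the 28 libraries were tested, which left 14908. The question was which genes differ between an acutely and a chronically injured lung when the ventilator is set the same way. Acutely injured lungs held higher levels of the repair keratin Krt17, of the cytokine Il24, of Ptx3 and Timp1 and of the metallothioneins Mt1a and Mt2A. They held lower levels of Rtkn2, a gene of type 1 alveolar cells, of the cytochrome Cyp2b1 and of the basement membrane collagen Col4a3. Each of these genes passed the test here. Each also passed in the same direction among 2 acutely and 3 chronically injured lungs ventilated with variable volumes, whose sample titles share a number series. Another 2 acutely injured lungs with variable volumes belong to a different series and were left out there. Set against chronic_VCV, which shares their series, they gave 6 called genes, none of them lower. Between acute_VCV and chronic_VCV the number series cannot be told apart from the injury.

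All animals were Sprague Dawley rats, and each library was made from poly(A)-selected RNA of the right upper lung lobe. Beside the pair of groups compared, acute_noisy (n = 4) and chronic_noisy (n = 3) carried the same 2 injuries but were ventilated with tidal volumes that varied from breath to breath. Lungs with no injury and constant ventilation formed healthy_VCV (n = 4), and lungs with neither injury nor ventilation formed control_blank (n = 3). Lungs with no injury and variable ventilation formed healthy_noisy (n = 3). The label of the last group, control_chronic (n = 5), names a chronic state and no ventilation mode. Only control_chronic has a day after induction in the labels. The labels used here give no injuring agent, age, sex or length of ventilation, nor the time between either injury and ventilation. Replicates are labelled as separate animals. The p-values rest on the spread between lungs within groups, pooled over 8 groups and 28 libraries, not on the compared groups alone. RNA came from whole lung tissue, so fewer cells of a type and less RNA per cell cannot be told apart.

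Acute lung injury is known for damage to the alveolar barrier: flat type 1 epithelial cells are lost, fibrin and fluid enter the air space, neutrophils arrive, and epithelial cells switch on keratins and junction proteins of a repair state. Tumour necrosis factor, interleukin 1 and bacterial products act through the transcription factor NF-kB, and interleukin 6 family cytokines act through STAT3, which induces its own inhibitor, Socs3. Stretch and growth factors act through MAP kinases on AP-1, the Fos and Jun family of transcription factors. Chronic injury is known for remodelling of matrix and vessels.

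The 3 acute_VCV libraries held 31923838, 29405515 and 28800053 reads, and the 3 chronic_VCV libraries 11280590, 16842768 and 14612821 reads, so low levels were measured less precisely in chronic_VCV. Each sample title begins with a number whose first digits were 12 in every acute_VCV and control_blank library and 15 in every chronic_VCV library. The labels do not say what this number series stands for, and in these 6 libraries it cannot be told apart from the injury. In the noisy groups, 2 acute_noisy and all 3 chronic_noisy libraries belonged to series 14, and the other 2 acute_noisy libraries to series 15. The injury difference within series 14 is therefore given beside the main one, since it shares no library with it, and the levels of the 2 acute_noisy libraries of series 15 are set beside chronic_VCV, which belongs to the same series but differs in ventilation mode. Lung markers were abundant in all 6 libraries: Sftpc, the surfactant protein of type 2 alveolar cells, spanned 242560 to 292090 normalised reads in acute_VCV, against 226410 to 272420 in chronic_VCV.

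A pair of chronic_VCV libraries stood apart in some gene groups. Library chronic_VCV_067 held 13865 normalised reads of Atf3, a stress-induced transcription factor, where chronic_VCV_069 held 358 and chronic_VCV_073 held 696. The same library held 20310 normalised reads of Egr1, another immediate early factor, where the others held 2716 and 710. Library chronic_VCV_069 held 110580 normalised reads of Eln, the elastin of elastic fibres, against 13688 and 16907 in the other chronic_VCV libraries.

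Of 14908 genes, 4570 passed an adjusted p of 0.05 (limma, Benjamini-Hochberg), which is 30.7% of those tested. Of these, 2492 were higher in acute_VCV, which is 16.7% of all tested, and the others, 13.9% of all tested, were lower. A difference of over 2-fold was called for 792 higher and 1023 lower genes, and one of over 4-fold for 176 higher and 164 lower genes. The 6 values did not overlap between the groups for 4194 of the called genes, and for 6012 of all genes tested (40.33%). The number called was 2803 without chronic_VCV_069 and 2690 when the fit used these 6 libraries alone; of 191 called genes chosen by the naming rule, 57 lost their call in that fit. Differences are given as log2 differences of acute_VCV minus chronic_VCV ± SE on the log2(value + 1) scale, which understates the change of genes with few reads. The median over all genes tested was -0.02. Genes are also counted by list below, by limma unless edgeR is named. In brackets beside a count stands each fit in which it changed by over 1.5 times and by at least 2 genes, where the fit of 6 is that on these libraries alone. A list whose called shares are near the 16.7% and 13.9% of all genes is at the level of the whole table.

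The same injuries under variable ventilation gave 2935 called genes over all noisy libraries (19.7% of those tested) and 4574 within series 14 (30.7%), 2148 of them higher (14.4%) and 2426 lower (16.3%). Of the genes called under constant ventilation, 2184 were also called in the same direction within series 14, which is 47.79% of the first list and 47.75% of the second, and 8 in the opposite direction. Counts by list within series 14 are given below. Over all noisy libraries some were smaller: 2 higher neutrophil markers against 7, 10 NF-kB genes against 14, and no interferon gene against 10. Keratins had 8 higher in both. The difference between the injury contrasts under constant and variable ventilation passed for 0.771% of genes tested. By limma 66 genes were higher and 49 lower in the constant contrast, while edgeR on the recovered reads gave 53 higher and 74 lower. Between acute_noisy and chronic_VCV within series 15, 6 genes passed (0.0402%), among them Krt17, Calcb, Ptx3 and Krt15, all higher in acute_noisy, and 987 genes had an unadjusted p under 0.05. For this comparison, median differences by list are given against those of acute_VCV minus chronic_VCV. Keratins stood at 0.87 against 1.47, neutrophil markers at 1.27 against 1.37 and cytokines at 0.84 against 0.55. Chemokines stood at 0.12 against 1.32, NF-kB genes at 0.52 against 0.65 and coagulation genes at 0.22 against 0.73. Heat shock genes stood at 0.27 against 0.76, glycolysis genes at 0.21 against 0.73 and interferon genes at -0.23 against 0.64.

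Promoter sequences of 4 genes that were higher in acute_VCV are shown because each holds a match to the AP-1 or NF-kB motif, the targets of the pathways named above. They run from 250 bases before to 50 bases after the start of the gene, from RefSeq on build GRCr8, 5′ to 3′ on the gene's strand, which is the minus strand for all 4. Motif matches are in capitals: AP-1 was searched as TGANTCA and NF-kB as GGANNTTCC, on both strands. Krt8, at chr7:135010290-135010589, encodes a keratin of simple epithelia and has an AP-1 match 14 bases after the start. In the Krt8 window the start falls on the letters atg. From there the sequence reads in frame without a stop codon through the match, so this match may lie in coding sequence. Mt2A, at chr19:10838659-10838958, encodes a zinc-binding metallothionein and has an AP-1 match 237 bases before the start. Il6, at chr4:5894526-5894825, encodes interleukin 6 and has an NF-kB match 67 bases before the start. Tfpi2, at chr4:32941227-32941526, encodes a protease inhibitor of the matrix and has an AP-1 match 80 bases and an NF-kB match 138 bases before the start.
Krt8: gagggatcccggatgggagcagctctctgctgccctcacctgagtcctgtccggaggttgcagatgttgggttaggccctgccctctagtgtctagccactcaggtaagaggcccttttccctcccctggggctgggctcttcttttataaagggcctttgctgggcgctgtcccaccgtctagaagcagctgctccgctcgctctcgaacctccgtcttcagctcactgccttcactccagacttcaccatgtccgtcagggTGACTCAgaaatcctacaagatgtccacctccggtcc
Mt2A: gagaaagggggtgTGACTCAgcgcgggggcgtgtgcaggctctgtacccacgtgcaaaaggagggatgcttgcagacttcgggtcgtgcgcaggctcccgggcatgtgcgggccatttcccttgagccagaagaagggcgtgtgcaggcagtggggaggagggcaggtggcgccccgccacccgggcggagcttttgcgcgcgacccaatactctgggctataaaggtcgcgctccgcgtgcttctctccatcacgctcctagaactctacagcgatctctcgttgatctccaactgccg
Il6: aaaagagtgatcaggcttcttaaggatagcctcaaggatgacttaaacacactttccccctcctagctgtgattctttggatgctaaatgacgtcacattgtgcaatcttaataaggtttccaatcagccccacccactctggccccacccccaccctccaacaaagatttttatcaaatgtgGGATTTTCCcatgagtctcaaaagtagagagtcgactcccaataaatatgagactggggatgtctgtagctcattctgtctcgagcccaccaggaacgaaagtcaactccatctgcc
Tfpi2: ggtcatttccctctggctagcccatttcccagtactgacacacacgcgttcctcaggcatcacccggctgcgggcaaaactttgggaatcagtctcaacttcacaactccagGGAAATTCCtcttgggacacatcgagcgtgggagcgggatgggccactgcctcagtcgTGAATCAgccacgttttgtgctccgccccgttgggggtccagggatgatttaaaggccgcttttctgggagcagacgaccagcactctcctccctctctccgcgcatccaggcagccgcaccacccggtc

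Of the 1424 higher genes with a RefSeq promoter, 6.18% held an AP-1 match, as did 4.51% of 975 lower genes and 5.22% of all 7605 tested genes with a promoter. For NF-kB the shares were 5.97% of the higher, 3.49% of the lower and 4.73% of all. The cAMP response element TGACGTCA was found in 4.21% of higher, 2.05% of lower and 3.06% of all promoters. The cell cycle element TTTGAA stood in 11%, 11.9% and 11.6%, and the CCAAT box in 38.3%, 35.7% and 37.6%. The AP-1, NF-kB and CRE shares were above the share of all promoters among higher genes and below it among lower genes, as a description without a test. Among genes over 4-fold apart this did not hold for AP-1, which stood in 8.25% of 97 higher and 15.1% of 53 lower promoters. In these sets NF-kB stood in 9.28% and 1.89%, and the cAMP response element in 3.09% and 1.89%. A match says only that these letters stand in the window.

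Epithelial keratins and junction proteins were higher in acutely injured lungs. Krt17 (ENSRNOG00000026371), a keratin of basal and regenerating epithelium, had 8345, 7180.4 and 9031 normalised reads in acute_VCV, against 9.18, 11.2 and 11.1 in chronic_VCV. Its groups were far apart, with chronic_VCV near the level of uninjured ventilated lungs, since it averaged 11.6 ± 8.91 in healthy_VCV and 56.9 ± 42.3 in control_blank. The log2 difference was 9.48 ± 0.81, adjusted p = 3.1e-07, and within series 14 it was 8.07 (adjusted p = 1.6e-06). Of 13 tested members of the basal and repair keratin list, 8 were higher and 1 lower, with a median of 1.47, against 16.7% higher over all genes, and within series 14 also 8 were higher.

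Cldn4, a tight junction claudin that is raised in injured alveolar epithelium, had 4165, 2965 and 3559 in acute_VCV, against 1007, 232 and 345 in chronic_VCV (3.03 ± 0.37, adjusted p = 9.3e-06). Krt8, a keratin of transitional alveolar cells, had 20057, 15592 and 20264 in acute_VCV, against 5782, 2796 and 7716 in chronic_VCV (1.89 ± 0.27, adjusted p = 3.3e-05). Both rose with no overlap between groups, and within series 14 the differences were 3.11 and 2.02. Krt15, a basal cell keratin, had 508, 407 and 459.5 in acute_VCV, against 84.2, 73 and 55.5 in chronic_VCV (2.69 ± 0.39, adjusted p = 3.1e-05), but its series 14 difference of 0.49 did not pass. The epithelial integrin chain Itgb4 (1.04 ± 0.20) and the simple keratins Krt19 (1.07 ± 0.22) and Krt7 (0.94 ± 0.23) were higher too, without overlap. Krt4 was the lower member, at -0.87 ± 0.31, and was no longer called when acute_VCV_040, acute_VCV_049 or chronic_VCV_069 was left out (adjusted p = 0.097 to 0.258).

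Among the 17 cytokines tested, 4 were higher (2 without chronic_VCV_069) and none lower in acute_VCV by limma or edgeR, against 16.7% higher over all genes. Within series 14 the counts were 9 and 2. Il24, an interleukin 10 family cytokine that acts on epithelium, had 1289, 1108 and 1391 normalised reads in acute_VCV, against 44.4, 3.04 and 31.1 in chronic_VCV. Every acute lung lay far above every chronic lung, and healthy_VCV averaged 2.56 (6.12 ± 0.79, adjusted p = 1.3e-05, and 6.86 within series 14). Csf3, the granulocyte growth factor, had 22.8, 35.1 and 169.9 in acute_VCV, against 1.53, 1.01 and 0 in chronic_VCV (4.94 ± 1.13, adjusted p = 0.0022). Where chronic_VCV was near 0, as for Csf3 and for Calcb, Hamp, Mb and Myl7 below, the log2 difference depends on the pseudocount and sets no bound on the fold. Il6, the ligand of the STAT3 pathway whose promoter is shown above, had 214, 489.8 and 771 in acute_VCV, against 171, 1.01 and 6.66 in chronic_VCV. The spread was wide in chronic_VCV, where 171 stood beside values below 7, and the difference (4.97 ± 1.28, adjusted p = 0.0053) was no longer called when chronic_VCV_069 was left out (adjusted p = 0.0577). Within series 14 the Il6 difference was 8.37 (adjusted p = 3.9e-05). Osm, a macrophage and neutrophil cytokine of the same family, differed by 1.5 ± 0.43, adjusted p = 0.011, and was no longer called when acute_VCV_049 or chronic_VCV_069 was left out (adjusted p = 0.062 to 0.0679). The early cytokines did not pass under constant ventilation: Il1b differed by 0.64 ± 0.57, adjusted p = 0.41, and Tnf by 0.54 ± 0.50, adjusted p = 0.44.

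Receptors and feedback genes of these cytokines had 6 members higher and 1 lower of 21 tested, and within series 14 they had 11 higher. Socs3, the inhibitor induced by STAT3, had 1830.3, 3169 and 4068 in acute_VCV, against 1362, 663 and 864 in chronic_VCV (1.64 ± 0.40, adjusted p = 0.0035). Tnfrsf12a, the receptor for the cytokine TWEAK, had 5314, 4044 and 5301 in acute_VCV, against 3308, 433 and 1259 in chronic_VCV (1.99 ± 0.42, adjusted p = 0.0012). Library chronic_VCV_067 lay nearest the acute lungs for both genes, without reaching them. Tnfrsf1a, a receptor for tumour necrosis factor, and Il4ra, the shared chain of the interleukin 4 and 13 receptors, were higher by 0.78 ± 0.18 and 0.70 ± 0.19. Osmr, the oncostatin M receptor, was higher by 1.87 ± 0.60 but no longer called when acute_VCV_045, acute_VCV_049, chronic_VCV_067 or chronic_VCV_069 was left out (adjusted p = 0.0513 to 0.0797). Lifr, the leukaemia inhibitory factor receptor, was the lower member, with 248, 325 and 491 in acute_VCV, against 1084, 1424 and 1614 in chronic_VCV (-1.99 ± 0.51, adjusted p = 0.0052). In healthy_VCV Lifr averaged 3821, above both injured groups.

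Chemokines had 9 higher (3 without chronic_VCV_069 and 5 without acute_VCV_040 or acute_VCV_049) and no lower members of 28 tested by limma, with a median of 1.32, and 12 higher within series 14. With edgeR 8 were higher and none lower. Cxcl16, a chemokine for T cells that is also made by epithelium, had 5725, 6307 and 9114 in acute_VCV, against 3138, 2548 and 3448 in chronic_VCV (1.19 ± 0.23, adjusted p = 0.00057). Ccl19, which attracts lymphocytes and dendritic cells, had 829, 165 and 441 in acute_VCV, against 55.1, 14.2 and 49.9 in chronic_VCV (3.49 ± 0.65, adjusted p = 0.0004). Uninjured and unventilated lungs reached the acute level of Ccl19, which averaged 121 ± 56 in healthy_VCV and 762 ± 812 in control_blank. Chemokines for neutrophils and monocytes were not called in every fit. Cxcl1 had 1422, 1906 and 2474 in acute_VCV, against 2186, 165 and 305 in chronic_VCV, so the groups overlapped through chronic_VCV_067. The Cxcl1 difference (1.97 ± 0.66, adjusted p = 0.027) did not pass with edgeR (adjusted p = 0.16) or when acute_VCV_045, acute_VCV_049, chronic_VCV_069 or chronic_VCV_073 was left out (adjusted p = 0.0635 to 0.21). Ccl7, a monocyte chemokine, differed by 3.01 ± 0.89, adjusted p = 0.013, and was no longer called when acute_VCV_040 or chronic_VCV_069 was left out (adjusted p = 0.0667 to 0.105). Cxcl2 (1.93 ± 0.95, adjusted p = 0.13) and Ccl2 (1.83 ± 1.08, adjusted p = 0.2) did not pass.

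NF-kB feedback and adhesion genes had 5 higher (1 without acute_VCV_049 or chronic_VCV_069 and 3 without acute_VCV_045 or chronic_VCV_073 or after quantile normalisation or in the fit of 6) and no lower members of 18 tested by limma, 6 by edgeR, and 14 higher within series 14. Ptx3, a soluble pattern recognition protein induced by NF-kB, had 3039.5, 3869.5 and 5218 in acute_VCV, against 302, 103 and 108 in chronic_VCV (4.71 ± 0.66, adjusted p = 2.6e-05). No chronic lung came near the lowest acute lung, and the 2 acute_noisy libraries of series 15 averaged 1222. Selp, the P-selectin of activated endothelium and platelets, had 1109.7, 2528 and 6105 in acute_VCV, against 809.8, 202 and 702 in chronic_VCV. Sod2, the mitochondrial superoxide dismutase, had 10043, 25720 and 43474 in acute_VCV, against 7491, 5463 and 7183 in chronic_VCV. In both, acute_VCV_049 was the highest library. Selp (2.40 ± 0.70, adjusted p = 0.012) was no longer called when acute_VCV_049 or chronic_VCV_069 was left out (adjusted p = 0.0805 to 0.0955). Sod2 (1.75 ± 0.51, adjusted p = 0.012) was no longer called when acute_VCV_049 or chronic_VCV_069 was left out (adjusted p = 0.0542 to 0.0854).

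**Figure D1:**
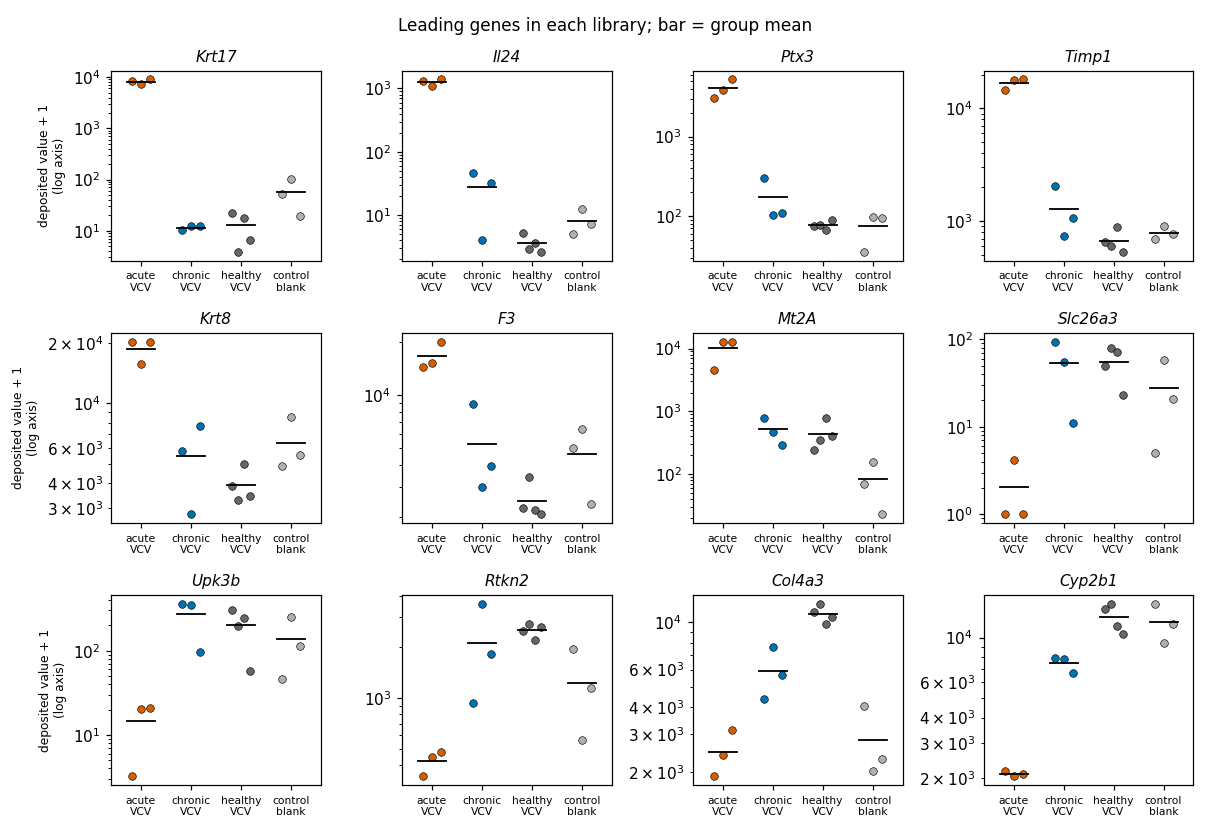
Deposited value + 1 on a log axis for 12 genes, with 1 point per library and a bar at the group mean, in acute_VCV, chronic_VCV, healthy_VCV and control_blank. Krt17, Il24, Ptx3, Timp1, Krt8, F3 and Mt2A lie higher in all 3 acute_VCV libraries than in any chronic_VCV library, and Slc26a3, Upk3b, Rtkn2, Col4a3 and Cyp2b1 lie lower.

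Several genes of clotting and proteolysis were higher in acute lungs, F3, Fgl2 and Timp1 among them. F3, the tissue factor that starts coagulation, had 14429, 15336 and 20225 normalised reads in acute_VCV, against 8918, 2996 and 3925 in chronic_VCV (1.8 ± 0.37, adjusted p = 0.00082). The groups did not overlap, and chronic_VCV_067 was the highest chronic library. Fgl2, a prothrombinase of macrophages and endothelium, had 5148, 13447 and 10170 in acute_VCV, against 2132, 1235 and 1850.5 in chronic_VCV (2.39 ± 0.44, adjusted p = 0.00031). Of 17 coagulation and fibrinolysis genes 6 were higher (3 without acute_VCV_045) and 1 lower, and within series 14 the counts were 8 and 1. Tfpi2 had 287, 592 and 538 in acute_VCV, against 193, 17.2 and 14.4 in chronic_VCV, where chronic_VCV_067 again stood apart. Its difference (3.57 ± 1.11, adjusted p = 0.018) was not called when acute_VCV_045, chronic_VCV_069 or chronic_VCV_073 was left out (adjusted p = 0.0571 to 0.0884). The lower member was F8, coagulation factor VIII, (-0.62 ± 0.19, adjusted p = 0.016), and it was not called when acute_VCV_040, chronic_VCV_069 or chronic_VCV_073 was left out (adjusted p = 0.0529 to 0.0586).

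Timp1, the tissue inhibitor of metalloproteinases, had 14656, 17751 and 18100 in acute_VCV, against 2065, 730.2 and 1055 in chronic_VCV, and averaged 667 ± 155 in healthy_VCV and 786 ± 108 in control_blank. The log2 difference was 3.84 ± 0.54, adjusted p = 2.7e-05, and it was 4.73 within series 14. Of 13 metalloproteinases and inhibitors 3 were higher and 2 lower (0 without chronic_VCV_069), shares near those of all genes. Adam8, a leukocyte protease, had 2824, 2267 and 4001 in acute_VCV, against 2096, 1339 and 1190.4 in chronic_VCV (0.98 ± 0.24, adjusted p = 0.0033), though control_blank averaged 3693. Adamts9, a protease of versican, was higher by 1.40 ± 0.44, adjusted p = 0.018, and was not called when acute_VCV_045, acute_VCV_049 or chronic_VCV_067 was left out (adjusted p = 0.0609 to 0.124). Mmp11, a stromal metalloproteinase, was lower (-1.35 ± 0.36, adjusted p = 0.0072), but not when acute_VCV_045 or chronic_VCV_069 was left out (adjusted p = 0.0525 to 0.0593). Adamts2, which trims procollagen, was lower (-1.02 ± 0.28, adjusted p = 0.0079), but not when chronic_VCV_069 was left out (adjusted p = 0.0948). Mmp9, the neutrophil gelatinase (1.53 ± 0.62, adjusted p = 0.064), and Mmp12, the macrophage elastase (1.23 ± 0.69, adjusted p = 0.18), did not pass.

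Metallothioneins, which bind zinc and are induced by glucocorticoid, metal and oxidant stress, rose. Mt1a had 3131, 6808 and 8824 in acute_VCV, against 1197, 306 and 186 in chronic_VCV (3.80 ± 0.59, adjusted p = 6.6e-05). Mt2A had 4632, 12944 and 12673 in acute_VCV, against 794, 464 and 291 in chronic_VCV (4.26 ± 0.76, adjusted p = 0.00026). No chronic library reached the lowest acute library for either gene. Both are on the glucocorticoid list, where 4 of 17 genes were higher (2 without acute_VCV_045) and 1 lower, against 16.7% and 13.9% of all genes. Txnrd1, the thioredoxin reductase, was higher by 1.08 ± 0.25, adjusted p = 0.0023, and Gpx2, an epithelial glutathione peroxidase, by 1.48 ± 0.28, adjusted p = 0.00045. Hmox1, haem oxygenase 1, differed by 1.52 ± 0.43, adjusted p = 0.01, and was not called when chronic_VCV_069 or chronic_VCV_073 was left out (adjusted p = 0.0555 to 0.0563). The other direction was taken by enzymes of drug and peroxide handling. Cyp2b1, the main cytochrome P450 of rat club cells, had 2171, 2038 and 2099 in acute_VCV, against 7874, 7794 and 6706 in chronic_VCV (-1.82 ± 0.39, adjusted p = 0.0013), and both groups lay below healthy_VCV at 12606. Fmo2, the flavin monooxygenase of lung, had 4376, 6527 and 4328 in acute_VCV, against 13054, 16619 and 9476 in chronic_VCV (-1.35 ± 0.29, adjusted p = 0.0013). Ephx1, the microsomal epoxide hydrolase (-1.36 ± 0.30), Cat, catalase (-0.90 ± 0.18) and Sod3, the extracellular superoxide dismutase (-0.89 ± 0.20), were lower too. In all, 5 of 22 xenobiotic and antioxidant genes were higher and 5 lower, against 16.7% and 13.9% of all genes. Within series 14 the counts were 5 and 9.

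Antimicrobial and acute phase genes included some of the highest differences. Hamp, the iron regulator hepcidin, had 526, 809 and 538 in acute_VCV, against 0, 3.04 and 0 in chronic_VCV (8.59 ± 1.08, adjusted p = 1.1e-05), while healthy_VCV averaged 42.9 and control_blank 160.4. Reg3b and Reg3g, lectins that act on bacteria, were read in all acute_VCV libraries and in no chronic_VCV library. Reg3b had 236, 124 and 164 normalised reads in acute_VCV, against 0 in each chronic_VCV library. Reg3g had 60, 163 and 53 in acute_VCV, against 0 in each chronic_VCV library, and no fold is given for either. These 2 genes are close copies, and reads may be split between them. Within series 14 the difference was 5.81 for Reg3b and 4.01 for Reg3g (adjusted p = 6.2e-05 and 0.0072). Lcn2, the siderophore-binding lipocalin of neutrophils and epithelium, had 7076, 26649 and 31323 in acute_VCV, against 231, 2571 and 1535 in chronic_VCV. Its spread was wide in both groups, and the difference (4.22 ± 1.39, adjusted p = 0.025) was no longer called when acute_VCV_045, acute_VCV_049 or chronic_VCV_067 was left out (adjusted p = 0.0744 to 0.11). Ptges, the inducible prostaglandin E synthase, had 188, 257 and 649.8 in acute_VCV, against 15.3, 19.3 and 11.1 in chronic_VCV (4.32 ± 0.85, adjusted p = 0.00065). Hpgd, which breaks prostaglandins down, had 274, 196 and 36 in acute_VCV, against 693, 401 and 607 in chronic_VCV, and its difference (-2.13 ± 0.59, adjusted p = 0.0086) was not called when acute_VCV_049 was left out (adjusted p = 0.0865). Calcb, a calcitonin gene-related peptide, had 432, 98.8 and 407 in acute_VCV, against 1.53, 0 and 0 in chronic_VCV (7.58 ± 0.75, adjusted p = 2.8e-06). Calcb has a close copy in Calca, so its level is uncertain, and control_blank averaged 14.2.

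Neutrophil markers were higher in 7 of 20 tested genes by limma (2 without acute_VCV_049, 3 without acute_VCV_045 or in the fit of 6, 4 without chronic_VCV_069, 11 by edgeR and 12 without acute_VCV_040) and in 7 within series 14, and none was lower by limma or edgeR. S100a8, a subunit of calprotectin, had 6996, 18161 and 28725 in acute_VCV, against 5515, 1886 and 3306 in chronic_VCV (2.24 ± 0.56, adjusted p = 0.0042). S100a9, the other subunit, had 17426, 44907 and 61267 in acute_VCV, against 14341, 4761 and 7292 in chronic_VCV (2.20 ± 0.51, adjusted p = 0.0025). The acute_VCV_040 library lay close to chronic_VCV_067 for both genes, and the other 2 acute libraries far above. Csf3r, the receptor for granulocyte growth factor, had 2559.9, 10103 and 12985 in acute_VCV, against 3172, 1723 and 3255 in chronic_VCV, so the groups overlapped, and its difference (1.41 ± 0.47, adjusted p = 0.026) was not called when acute_VCV_045, acute_VCV_049 or chronic_VCV_069 was left out (adjusted p = 0.116 to 0.158). Il1r2, the decoy receptor for interleukin 1 on neutrophils, differed by 2.03 ± 0.58, adjusted p = 0.011, and was not called when acute_VCV_045 or acute_VCV_049 was left out (adjusted p = 0.0661 to 0.0746). The summed level of the list was 41172 to 160530 in acute_VCV, against 15003 to 30739 in chronic_VCV. In uninjured ventilated lungs it was 24402 to 45618 (healthy_VCV) and 30395 to 41545 (healthy_noisy), ranges that hold the lowest acute_VCV library.

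Cd14, the co-receptor for lipopolysaccharide on monocytes and neutrophils, had 2097, 4821 and 5563 in acute_VCV, against 1007, 1322 and 1124 in chronic_VCV (1.74 ± 0.42, adjusted p = 0.0032). It was 1 of 4 higher genes among 20 of pattern recognition (1 without acute_VCV_049 or chronic_VCV_069 or in the fit of 6, 2 without acute_VCV_045 and 10 without acute_VCV_040), near the 16.7% of all genes, with none lower by limma or edgeR. Tlr2, the receptor for bacterial lipoproteins, differed by 1.18 ± 0.37, adjusted p = 0.02, and was not called when acute_VCV_049 or chronic_VCV_069 was left out (adjusted p = 0.0987 to 0.172). Of 20 macrophage and monocyte markers 1 was higher and 1 lower (3 without chronic_VCV_073 and 4 without chronic_VCV_067), and of 10 mast cell markers limma and edgeR each called 0. Interferon response genes had 1 higher of 22 (4 without acute_VCV_040), Ifit3 (1.5 ± 0.55, adjusted p = 0.04), which was not called when acute_VCV_045, acute_VCV_049, chronic_VCV_067 or chronic_VCV_069 was left out (adjusted p = 0.0503 to 0.228). Within series 14, 10 of the 22 were higher, against 14.4% of all genes, but over all noisy libraries none was called. Their summed level ran from 13986 to 85130 in acute_noisy.

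Immediate early factors depended on 1 chronic library. Of 23 tested, 1 was higher (11 without chronic_VCV_067) and 2 lower (0 without chronic_VCV_067 and 5 by edgeR) with all 6 libraries. Fosl1, a Fos family member of AP-1, had 1515.3, 1235 and 1441 in acute_VCV, against 1248, 54.8 and 189 in chronic_VCV. The acute libraries were even among themselves, and chronic_VCV_067 lay between them. The Fosl1 difference was 2.56 ± 0.64, adjusted p = 0.0043, and it was not called when chronic_VCV_069 was left out (adjusted p = 0.0539). Fos differed by -0.54 ± 0.73, adjusted p = 0.6, and Atf3 by -0.26 ± 0.76, adjusted p = 0.82, neither past the threshold. Jund, another AP-1 member, was lower, with 1098, 809 and 559 in acute_VCV, against 6507, 2274 and 2010.2 in chronic_VCV (-1.97 ± 0.59, adjusted p = 0.015), and was not called when acute_VCV_049 or chronic_VCV_067 was left out (adjusted p = 0.0619 to 0.0847). MAP kinase feedback genes and EGF receptor ligands had 3 of 19 higher (0 without acute_VCV_049 or chronic_VCV_073, 1 without acute_VCV_045 or in the fit of 6 and 8 without chronic_VCV_067), near the 16.7% of all genes. Areg, an EGF receptor ligand (1.36 ± 0.69, adjusted p = 0.13), and Ctgf, a YAP target of stretch (0.37 ± 0.25, adjusted p = 0.25), did not pass. Ankrd1, a YAP target that heart muscle also makes, was higher by 2.36 ± 0.42, adjusted p = 0.00024, but control_blank averaged 1790.

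Heat shock proteins were higher in 10 of 17 tested genes (6 in the fit of 6), with none lower by limma or edgeR, and in 14 within series 14. Hspe1, a chaperonin of mitochondria, had 3176, 3764 and 4109 in acute_VCV, against 1232, 1092 and 1332 in chronic_VCV (1.59 ± 0.19, adjusted p = 7.9e-06). Hspd1, its partner, had 3287, 3994 and 4569.8 in acute_VCV, against 1468, 1179.5 and 1553 in chronic_VCV (1.49 ± 0.22, adjusted p = 5.3e-05). All acute lungs lay above all chronic lungs for both. The cytosolic chaperonin subunit Cct5 (0.76 ± 0.16) and the Hsp70 partners Hspa4 (0.82 ± 0.17) and Stip1 (0.85 ± 0.19) were higher too. Hspa1a, the inducible Hsp70, had 27186, 37008 and 48017 in acute_VCV, against 25888, 1886 and 2635 in chronic_VCV, where chronic_VCV_067 nearly reached acute_VCV_040. Its difference (2.85 ± 0.87, adjusted p = 0.016) was not called by edgeR (adjusted p = 0.088) or when acute_VCV_049, chronic_VCV_069 or chronic_VCV_073 was left out (adjusted p = 0.0522 to 0.111). Without chronic_VCV_067, 13 members were higher, and without chronic_VCV_069, 7.

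Glycolysis genes followed the same direction, with 10 of 21 hypoxia and glycolysis genes higher (5 without acute_VCV_049 or chronic_VCV_073 or in the fit of 6 and 6 without acute_VCV_045 or chronic_VCV_069) and none lower by limma, 9 by edgeR, and 14 higher and 2 lower within series 14. Ldha, lactate dehydrogenase A, had 7918, 8662 and 9359.9 in acute_VCV, against 4283, 2278 and 3399 in chronic_VCV (1.42 ± 0.20, adjusted p = 2.6e-05). Pgk1, phosphoglycerate kinase, had 4405, 5008 and 5487 in acute_VCV, against 2039, 2044 and 2789 in chronic_VCV (1.13 ± 0.19, adjusted p = 0.00014). Eno1 and Aldoa, an enolase and an aldolase, were higher by 0.91 ± 0.14 and 0.94 ± 0.18. None of these 4 genes overlapped between the groups. Creld2, an endoplasmic reticulum stress gene, had 2076, 2848 and 2737 in acute_VCV, against 999.6, 823 and 1583 in chronic_VCV (1.21 ± 0.23, adjusted p = 0.00049). Of 23 genes of the unfolded protein and amino acid stress list 5 were higher (2 without chronic_VCV_069 and 3 without acute_VCV_049 or in the fit of 6) and 2 lower (4 without chronic_VCV_067), against 16.7% and 13.9% of all genes. Hspa5, the main chaperone of that compartment, had 17599, 28802 and 31825 in acute_VCV, against 10966, 9239.9 and 17903 in chronic_VCV, with an overlap at chronic_VCV_073, and its difference (1.05 ± 0.30, adjusted p = 0.011) was not called when acute_VCV_049 or chronic_VCV_069 was left out (adjusted p = 0.0559 to 0.0737).

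Type 1 alveolar cell genes were lower in 5 and higher in 2 (0 without acute_VCV_040 or chronic_VCV_069 or after quantile normalisation or in the fit of 6) of 12 tested, against 13.9% and 16.7% of all genes, and within series 14 they were lower in 9 and higher in 1. Rtkn2, a marker of type 1 cells, had 343, 444 and 478 in acute_VCV, against 929, 3589 and 1816 in chronic_VCV (-2.12 ± 0.38, adjusted p = 0.00029). Akap5, a kinase anchor, had 1002, 969.9 and 1713 in acute_VCV, against 2566, 6322 and 5909.7 in chronic_VCV (-1.95 ± 0.37, adjusted p = 0.00042). Lmo7, a junction protein, and Clic5, an intracellular chloride channel protein, were lower, at -1.06 ± 0.18 and -0.92 ± 0.19. Within series 14 these 4 differed by -2.06, -1.20, -1.08 and -1.22. In healthy_VCV Rtkn2 averaged 2504 and Akap5 6163, so chronic_VCV lay nearer the uninjured level than acute_VCV did. Ager, an abundant type 1 marker, did not pass (0.18 ± 0.19, adjusted p = 0.49). The 2 higher genes were Pdpn and Gprc5a. Pdpn, podoplanin, differed by 0.44 ± 0.15, adjusted p = 0.025, and was not called when acute_VCV_040, acute_VCV_045, chronic_VCV_067 or chronic_VCV_069 was left out (adjusted p = 0.0592 to 0.142). Gprc5a, a retinoid-induced receptor, differed by 0.58 ± 0.19, adjusted p = 0.025, and was not called when acute_VCV_040, acute_VCV_049 or chronic_VCV_069 was left out (adjusted p = 0.069 to 0.274).

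Type 2 cell genes had 2 higher (0 after quantile normalisation) and 2 lower (0 without acute_VCV_045, acute_VCV_049, chronic_VCV_069 or chronic_VCV_073) of 11. These shares were near the 16.7% and 13.9% of all genes. Within series 14 the list had 1 higher and 7 lower. Sftpc differed by 0.03 ± 0.24, adjusted p = 0.95. Slc34a2, the phosphate transporter of type 2 cells, differed by -0.56 ± 0.19, adjusted p = 0.032, and was not called when acute_VCV_040, acute_VCV_045, acute_VCV_049, chronic_VCV_069 or chronic_VCV_073 was left out (adjusted p = 0.0508 to 0.163). Lpcat1, which remodels surfactant lipid, was higher by 0.63 ± 0.16, adjusted p = 0.005, a call that quantile normalisation ended (adjusted p = 0.11). Ciliated cell genes had 1 lower of 14 (3 without acute_VCV_049) and none higher by limma or edgeR, but 10 lower within series 14. Transport genes had 4 lower (1 without chronic_VCV_069 and 2 without acute_VCV_040 or acute_VCV_049 or in the fit of 6) and 1 higher of 16. Atp1b3, a beta chain of the sodium pump, was the higher one, by 0.51 ± 0.12, adjusted p = 0.0028. Scnn1g, the gamma chain of the epithelial sodium channel, had overlapping values and differed by -0.64 ± 0.23, adjusted p = 0.037, and was not called when acute_VCV_045, acute_VCV_049, chronic_VCV_069 or chronic_VCV_073 was left out (adjusted p = 0.0634 to 0.212).

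Collagens had 5 lower (2 without chronic_VCV_069 and 9 without chronic_VCV_067) and no higher members of 15 tested by limma, 6 lower by edgeR, and a median of -0.72. Col4a3, a chain of mature alveolar basement membrane, had 1905, 2404 and 3126 in acute_VCV, against 4372, 7653 and 5672 in chronic_VCV (-1.24 ± 0.25, adjusted p = 0.00067). Col4a4, its partner chain, had 2449, 2787 and 4027 in acute_VCV, against 5074, 10413 and 7425 in chronic_VCV (-1.28 ± 0.28, adjusted p = 0.0016). The groups did not overlap for either, and both groups lay below healthy_VCV, which averaged 10914 and 12324. Col5a1, a chain of fibrillar collagen V, differed by -1.11 ± 0.32, adjusted p = 0.011, and was not called when chronic_VCV_069 was left out (adjusted p = 0.0932). Col1a1 (-0.94 ± 0.48, adjusted p = 0.13) and Col3a1 (-0.65 ± 0.38, adjusted p = 0.2) did not pass. Eln had 13022, 8066 and 5438 in acute_VCV, against 13688, 110580 and 16907 in chronic_VCV, and its difference (-1.83 ± 0.56, adjusted p = 0.016) was not called when acute_VCV_049 or chronic_VCV_069 was left out (adjusted p = 0.0752 to 0.185). Within series 14, 2 collagens were higher and 2 lower, near the 14.4% and 16.3% of all genes, with a median of 0.16. Over all noisy libraries none was higher and 1 lower, with a median of -0.27, the same sign as under constant ventilation. The test of the difference between the contrasts passed for none of the 15.

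The clock output factor Tef had 1278, 804 and 751 in acute_VCV, against 3372, 2902 and 2235 in chronic_VCV (-1.61 ± 0.29, adjusted p = 0.00025), and -1.92 within series 14. Per3, a clock repressor, was lower, at -1.19 ± 0.32, adjusted p = 0.008, and was not called when acute_VCV_045 was left out (adjusted p = 0.0546). In all 1 of 14 clock genes was higher and 3 lower (1 without acute_VCV_045). In the endothelium, Nos3, the nitric oxide synthase, had 857, 1085 and 814 in acute_VCV, against 374, 513 and 297 in chronic_VCV (1.24 ± 0.27, adjusted p = 0.0013), and Esam, a junction adhesion molecule, was higher by 1.07 ± 0.21, adjusted p = 0.00057. Calcrl, the receptor chain for adrenomedullin and calcitonin gene-related peptide, had 1121, 874 and 609 in acute_VCV, against 2498, 2166 and 3062 in chronic_VCV (-1.60 ± 0.41, adjusted p = 0.0056). These stood among 2 higher and 2 lower (5 without acute_VCV_040) of 18 endothelial markers, shares no higher than the 16.7% and 13.9% of all genes. Angpt2, an angiopoietin that destabilises vessels, was higher by 1.10 ± 0.34, adjusted p = 0.018, and was not called when acute_VCV_045 or chronic_VCV_067 was left out (adjusted p = 0.089 to 0.0994). Of 30 cell division genes 6 were higher (2 without chronic_VCV_073 and 3 without acute_VCV_049) and 1 lower, with the higher share near that of all genes. Fstl3, an activin inhibitor, was higher by 0.72 ± 0.15, adjusted p = 0.00091, 1 of 3 higher among 22 TGF-beta, activin and BMP genes, a share near that of all genes.

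Several further genes had large negative differences. Slitrk6, a membrane protein of epithelium and neurons, had 17.2, 5.1 and 2.61 in acute_VCV, against 56.6, 112 and 121 in chronic_VCV (-3.65 ± 0.51, adjusted p = 2.4e-05), and within series 14 it differed by -2.71. Tril, a co-receptor of Toll-like receptors 3 and 4, had 84.5, 58 and 52.3 in acute_VCV, against 288, 592 and 478 in chronic_VCV (-2.75 ± 0.42, adjusted p = 6.2e-05, and -2.59 within series 14). Cnga3, a cyclic nucleotide-gated channel, had 45.6, 26.1 and 39.9 in acute_VCV, against 199, 461 and 185 in chronic_VCV (-2.79 ± 0.46, adjusted p = 0.00012). Frem2, a basement membrane adhesion protein, was lower (-2.79 ± 0.45, adjusted p = 0.0001), but its series 14 difference of -1.17 did not pass. Slc26a3, a chloride and bicarbonate exchanger, had 0, 3.19 and 0 in acute_VCV, against 93.4, 53.8 and 9.98 in chronic_VCV. This reached 0 in 2 acute libraries, and its log2 difference depends on the pseudocount.

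**Figure D2:**
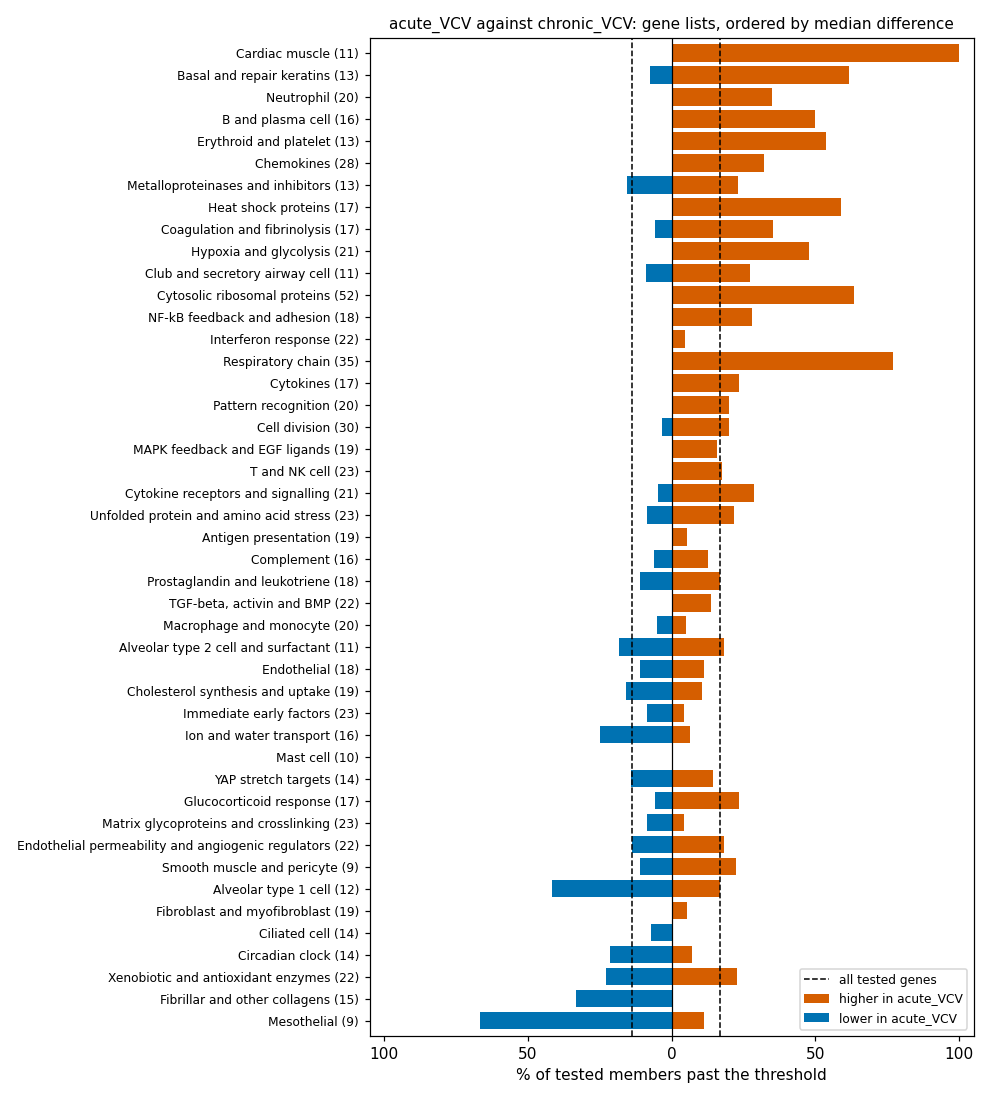
Percent of tested members of 45 gene lists past the adjusted p of 0.05, to the right for genes higher and to the left for genes lower in acute_VCV than in chronic_VCV, with the number tested in brackets and dashed lines at the share of all tested genes (16.7% higher, 13.9% lower). Lists run from the highest median difference at the top, cardiac muscle with 11 of 11 higher, to the lowest at the bottom, mesothelial with 6 of 9 lower.

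Some gene groups called under constant ventilation had few calls within series 14. Cytosolic ribosomal proteins were higher in 33 of 52 tested with none lower by limma, 34 higher by edgeR and 23 after quantile normalisation. Rpl7 had 16109, 14483 and 14170 in acute_VCV, against 8776, 7488 and 7358 in chronic_VCV (0.92 ± 0.13, adjusted p = 3.1e-05). Rpl11 had 12096, 10857 and 11445 in acute_VCV, against 5969.9, 5347 and 5994 in chronic_VCV (0.99 ± 0.16, adjusted p = 8.4e-05). Within series 14 the Rpl7 difference was -0.00074 and 7 of the 52 were higher. The difference between the 2 modes' injury contrasts passed for 2 of the 52. Their summed level was 374110 to 414860 in acute_VCV, against 230510 to 275280 in chronic_VCV, and 320310 to 446660 in uninjured and unventilated control_blank, which shares series 12 with acute_VCV. In control_chronic, of series 18, the sum was 244990 to 324950. The 2 acute_noisy libraries of series 15 differed from chronic_VCV by a median of -0.00357 over these genes.

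Respiratory chain genes were higher in 27 of 35 with none lower by limma and edgeR, and 3 of 35 were higher within series 14. The difference between the contrasts passed for 3 of the 35. Ndufb9, a subunit of complex I, had 3052, 2845 and 2959.8 in acute_VCV, against 1598, 1444.1 and 1606 in chronic_VCV (0.93 ± 0.11, adjusted p = 6e-06). Ndufv2, another complex I subunit, had 2602, 2342 and 2313 in acute_VCV, against 1497, 1316 and 1460 in chronic_VCV (0.76 ± 0.12, adjusted p = 7.1e-05), with -0.15 within series 14. The summed level was 91798 to 98101 in acute_VCV, against 66295 to 67687 in chronic_VCV, and 86318 to 99266 in control_blank. In control_chronic, of series 18, it was 77891 to 88960, above any chronic_VCV library. For both lists the acute_VCV and control_blank libraries, all of series 12, overlapped, and the part of the number series in the difference cannot be told apart from that of injury.

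Heart muscle genes had the highest median of the 45 lists. All 11 cardiac muscle genes tested were higher, with a median of 4.45. Myl7, the atrial myosin light chain, had 4863, 2418 and 2768 in acute_VCV, against 3.06, 4.06 and 1.11 in chronic_VCV (9.83 ± 1.89, adjusted p = 0.00051). Mb, the oxygen store myoglobin, had 1309, 532 and 541 in acute_VCV, against 1.53, 1.01 and 1.11 in chronic_VCV (8.36 ± 1.63, adjusted p = 0.00059). Tnnt2, cardiac troponin T, had 1808, 807 and 955 in acute_VCV, against 84.2, 71 and 53.2 in chronic_VCV (4.01 ± 0.68, adjusted p = 0.00016). In rat lung these genes are known from the muscle sleeves of pulmonary veins. Within series 14 the median was 0.46, and Myl7 differed by 0.59 (adjusted p = 0.79). Their sum was 7184 to 17217 in acute_VCV, against 309 to 732 in chronic_VCV. It was 2784 and 9713 in the acute_noisy libraries of series 14, 324 and 512 in those of series 15, and 10274 to 18635 in control_blank. The acute_noisy libraries of the 2 number series did not overlap in this sum, and in acute_VCV and chronic_VCV the number series and the injury cannot be told apart. With any 1 of the 6 libraries left out, 10 or 11 of the 11 were called higher. Actc1, cardiac actin, was the gene whose groups overlapped (2.07 ± 0.68, adjusted p = 0.023), and it was not called when acute_VCV_040 or chronic_VCV_069 was left out (adjusted p = 0.126 to 0.196).

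**Figure D3:**
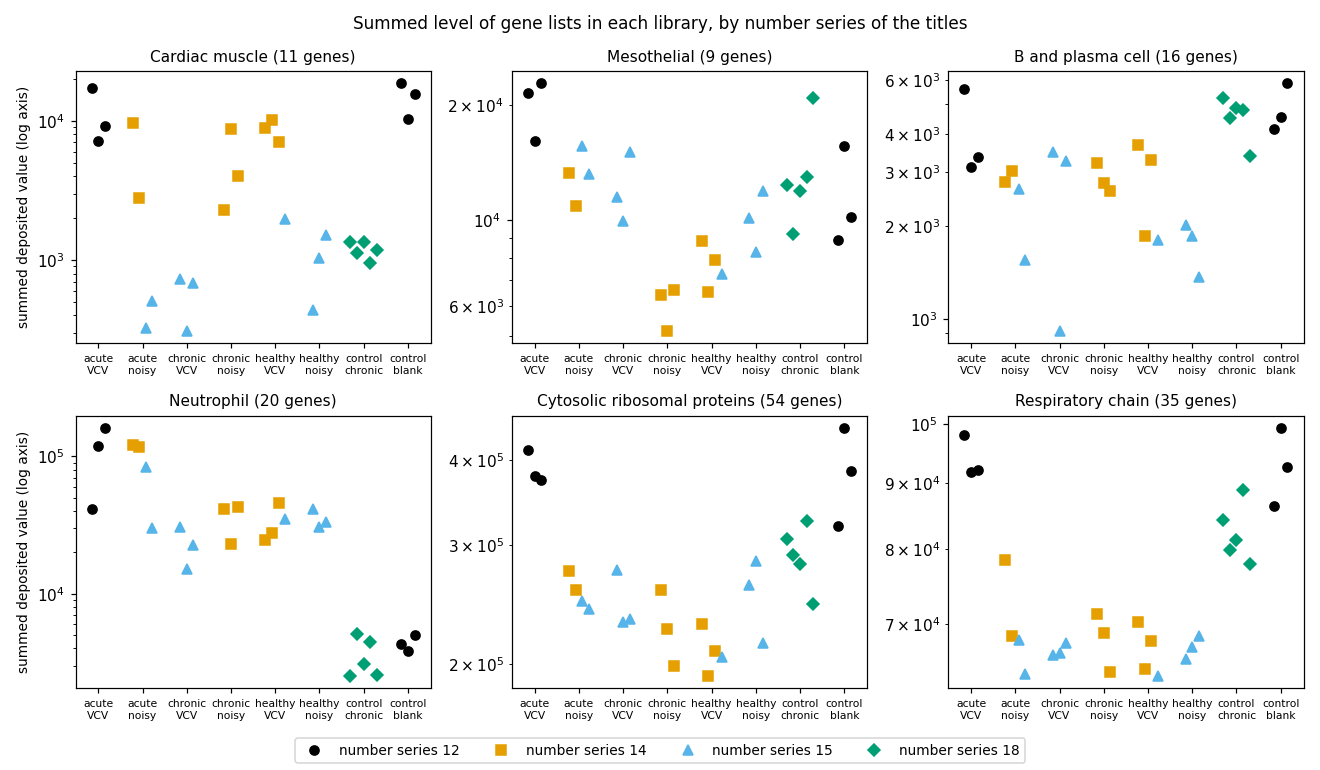
Summed deposited values (log axis) of 6 gene lists in each of the 28 libraries, by group, with the marker shape and colour giving the number series of the title. Neutrophil sums are higher in every acute_VCV than in any chronic_VCV library, while cardiac, ribosomal and respiratory chain sums are high in the black series 12 points of acute_VCV and control_blank alike. In control_chronic, of series 18, the respiratory chain sum is 77891 to 88960, above any chronic_VCV library, and the ribosomal sum is 244990 to 324950.

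Markers of the mesothelium, the cell layer that covers the lung surface, went the other way, with 6 lower (3 without chronic_VCV_069) and 1 higher of 9 tested and a median of -2.44. Upk3b, a surface protein of mesothelium, had 2.22, 19.1 and 19.6 in acute_VCV, against 359.7, 349 and 96.5 in chronic_VCV. Upk1b, its tetraspanin partner, had 17.8, 52.3 and 25.5 in acute_VCV, against 747, 579 and 133 in chronic_VCV. The groups did not overlap, but Upk3b (-4.39 ± 1.24, adjusted p = 0.0098) was not called when acute_VCV_040 was left out (adjusted p = 0.0582), and Upk1b (-3.70 ± 1.07, adjusted p = 0.011) was not called when chronic_VCV_069 was left out (adjusted p = 0.0511). Gpm6a, a membrane glycoprotein, had 22.8, 45.3 and 28.8 in acute_VCV, against 631, 570 and 100.95 in chronic_VCV (-3.38 ± 0.92, adjusted p = 0.0077). Wt1, the transcription factor of mesothelium, had 5, 16.6 and 7.84 in acute_VCV, against 158, 114.6 and 38.8 in chronic_VCV, and its difference (-3.20 ± 0.95, adjusted p = 0.014) was not called when acute_VCV_040 or chronic_VCV_069 was left out (adjusted p = 0.0527 to 0.053). The 1 higher member was Krt19, which other epithelia make too and which carried the sum of the list, 16076 to 22762 in acute_VCV, against 9985 to 15035 in chronic_VCV. Within series 14 the median was 0.67, and Upk3b differed by 0.67 (adjusted p = 0.76).

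Of 16 B and plasma cell markers 8 were higher (0 in the fit of 6, 1 without chronic_VCV_069, 3 without acute_VCV_040 and 5 without acute_VCV_049), and within series 14 there was 1 higher and 1 lower. Pou2af1, a B cell transcription cofactor, had 617, 429.8 and 454 in acute_VCV, against 254, 33.5 and 327 in chronic_VCV (1.8 ± 0.48, adjusted p = 0.0069). Ms4a1, the B cell surface protein CD20, had 372, 157 and 219.6 in acute_VCV, against 88.8, 27.4 and 141 in chronic_VCV, and its difference (1.72 ± 0.52, adjusted p = 0.015) was not called when acute_VCV_040 or chronic_VCV_069 was left out (adjusted p = 0.0774 to 0.149). T and NK cell markers had 4 higher of 23 (0 without acute_VCV_040 or chronic_VCV_069 or in the fit of 6), near the 16.7% of all genes. Glycam1, a ligand for L-selectin in lymph node vessels, had 802, 153 and 418 in acute_VCV, against 0, 0 and 0 in chronic_VCV, and with chronic_VCV at 0 no fold is given. It averaged 94.4 ± 66.7 in healthy_VCV and 624 ± 724 in control_blank. Haemoglobin and platelet genes were higher in 7 of 13 (1 without chronic_VCV_069, 2 without acute_VCV_045 and 3 in the fit of 6), and in 1 within series 14. Their sum was 154190 to 242310 in acute_VCV, against 39160 to 129380 in chronic_VCV, and 199960 to 237960 in control_blank. Hbb-b1, a beta globin, had 5528, 8650.3 and 6152 in acute_VCV, against 3828, 1179.5 and 1989 in chronic_VCV (1.68 ± 0.42, adjusted p = 0.004).

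Airway secretory genes were uneven between libraries. Plunc, an antimicrobial protein of large airways, had 516, 745 and 2917 in acute_VCV, against 24.5, 9.13 and 2.22 in chronic_VCV, and averaged 1993 ± 2011 in healthy_VCV and 3253 ± 4467 in control_blank. The difference (6.79 ± 2.07, adjusted p = 0.016) was not called when acute_VCV_049 or chronic_VCV_073 was left out (adjusted p = 0.0604 to 0.0607). Within series 14 it was -0.74. Scgb1a1, the secretoglobin of club cells, did not pass (0.10 ± 0.39, adjusted p = 0.87). Small nucleolar RNAs, a group gathered by name after values were seen, were higher in 7 of 21 SNORA and 18 of 29 SNORD genes, with none lower by limma, and within series 14 in 5 and 17. They lack long poly(A) tails, and the libraries were poly(A)-selected. The small nucleolar RNA snoU90 was lower, with 6.67, 15.9 and 11.8 in acute_VCV, against 209.7, 56.8 and 61 in chronic_VCV (-2.94 ± 0.81, adjusted p = 0.0086).

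The difference between the injury contrasts of the 2 ventilation modes passed for the 66 higher and 49 lower genes given above. The constant contrast sets series 12 against series 15, and the variable one sets series 14 and 15 against series 14, so mode and number series cannot be told apart in it. These genes included 9 of the 11 cardiac muscle genes, Myl7 (difference of contrasts 13.47 ± 2.59, adjusted p = 0.014) and Mb (11.70 ± 2.24, adjusted p = 0.013) among them. Hamp stood at 7.41 ± 1.48 (adjusted p = 0.017): its difference was 8.59 ± 1.08 under constant and 1.18 ± 1.01 under variable ventilation. Pkd2l2, a polycystin family channel, had a negative difference of contrasts, at -3.63 ± 0.69 (adjusted p = 0.013). None of the tested keratins, cytokines, chemokines, NF-kB, coagulation, heat shock or glycolysis genes on the lists passed this test by limma. With 0.771% of all genes passing, lists of this size without a call are near that share. The absence of calls therefore does not show that these genes are independent of the ventilation mode. Over all genes 1765 had an unadjusted p under 0.05, and edgeR called 127 genes. With only the libraries of the 4 groups in the fit, 1 gene passed.

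**Figure D4:**
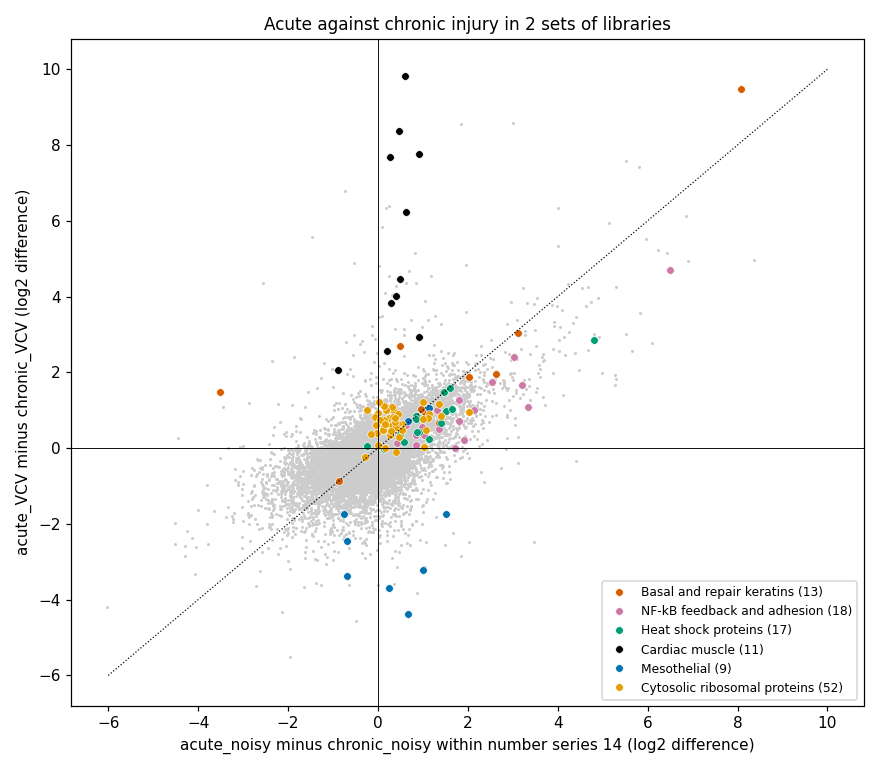
Each point is a gene, with its log2 difference of acute_noisy minus chronic_noisy within number series 14 on the x axis and of acute_VCV minus chronic_VCV on the y axis, 6 gene lists in colour, and a dotted line of equal values. Most NF-kB and heat shock genes lie near or to the right of the line. Keratins lie on both sides of it, with a median of 1.14 on the x axis and 1.47 on the y axis. Cardiac genes lie high and most mesothelial genes low near 0 on the x axis.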

How the data were processed

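The deposited table holds counts of reads per gene that the authors divided by 1 DESeq size factor per library, a signal and not raw counts. Per the file headers the genes are those of Ensembl release 67, and per the submitters' processing notes the tools were CASAVA 1.8.0, BWA, bedtools 2.11 and DESeq 1.8.3 on genome build rn4; a role for each is not given. Libraries were poly(A)-selected and strand-specific, per the labels' protocols; whether counting used strand is not given in the sources used here.

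Dividing by each library's step, the value of 1 read, returned whole reads for 100% of values within 0.1 of a read. The recovered totals were 6024093 to 31923838 reads per library. No library pair of a group agreed within sampling noise (smallest chi-square per gene 13.5), so each library counts as 1 replicate. The main test was limma 3.58.1 (trend, robust; R 4.3.3) on log2(value + 1) with 8 group means over 28 libraries, two-sided, adjusted over 14908 genes. The series 14 and series 15 comparisons used group means split by the number series of the titles. Each result was recomputed with a pseudocount of 10, with all genes kept, after quantile normalisation, with edgeR 4.0.16 quasi-likelihood on recovered reads, in a fit on only the libraries compared, and with each library left out. The pipeline was tested on simulated data.

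Members and lists were chosen with earlier results of these data known. Named genes were the 12 highest and 12 lowest differences among called genes without overlap whose higher group averaged 50 or more, up to 5 called members of each of 45 lists, a set of 30 fixed genes and the 5 highest and 5 lowest differences of contrasts; other list members were named where a list is described. A few genes that this rule names are not reported here. Of 1024 list entries 863 were found in the table. RefSeq promoters were matched by symbol. Close gene copies and overlapping genes may share reads.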

Additional observations from a re-analysis of the deposited data

Results flagged for a closer look

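For 19 of the genes named, the injury difference under constant ventilation departed from that under variable ventilation in the test of the difference itself, in which mode and number series cannot be told apart. Values are log2 differences of acute_VCV minus chronic_VCV less those of acute_noisy minus chronic_noisy, with SE and, in brackets, the adjusted p of limma over all genes tested.

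Muscle genes made up 9 of them, which are not the same 9 as those of the cardiac muscle list above. Casq2 was on the smooth muscle and pericyte list, and Actn2 and Smpx were not on the cardiac muscle list. Myl7 stood at 13.5 ± 2.6 (0.0139), Myh6 at 11.9 ± 2.3 (0.0133), Mb at 11.7 ± 2.2 (0.0133) and Csrp3 at 9.82 ± 1.9 (0.0154). Actn2, an alpha-actinin of the sarcomere, stood at 9.04 ± 1.9 (0.0235), and Smpx, a small muscle protein, at 8.57 ± 1.6 (0.0133). Casq2, the calcium store of heart muscle, stood at 5.5 ± 1 (0.0133), Tnnt2 at 4.97 ± 0.93 (0.0133) and Pln, phospholamban, at 2.75 ± 0.63 (0.0346). The cardiac sum moved with the number series of the titles in every group that spans more than 1 series: acute_noisy held 2784 and 9713 in series 14 and 324 and 512 in series 15, and healthy_VCV held 7016 to 10215 in series 14 and 1969 in series 15. Its part in these differences was not tested.

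Outside these muscle genes, Glycam1 stood at 8.61 ± 2 (0.0337) and Hamp at 7.41 ± 1.5 (0.0173). Glycam1 was 0 in all 3 chronic_VCV libraries, and Hamp, Mb, Csrp3, Smpx, Myl7 and Actn2 had few reads there, so these values depend on the pseudocount and set no bound on a fold. The ribosomal protein gene Rpl7 stood at 1 ± 0.18 (0.0133), and the complex I genes Ndufv2 at 0.967 ± 0.16 (0.00835) and Ndufb9 at 0.698 ± 0.15 (0.0202). The difference of contrasts was negative for Mog, a myelin protein, at -3.96 ± 0.9 (0.0337), Pkd2l2 at -3.63 ± 0.69 (0.0133) and Jund at -3.39 ± 0.81 (0.0451). It was also negative for Pcp2, a Purkinje cell protein, at -3.13 ± 0.68 (0.0247) and Meis2, a homeobox factor, at -1.52 ± 0.36 (0.0398).

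The 7SK RNA stood apart in 1 healthy_VCV library, healthy_VCV_060, at 1019 normalised reads; its gap to the nearest other library was 0.833 of the group's range, just past Dixon's limit for 4 samples. Chance passes that limit in about 1 of 20 groups.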

How the results depend on the processing

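The constant ventilation comparison gave 4598 calls with a pseudocount of 10, 4638 without a filter, 4300 after quantile normalisation and 4636 with edgeR, against 4570. With only the libraries compared in the fit it gave 2690, the variable ventilation comparison 694 (against 2935), the difference of contrasts 1 (against 66 higher and 49 lower) and the comparison within series 15 1 (against 6, and 12 with a pseudocount of 10). Leaving out 1 library gave 2803 to 4765 calls under constant ventilation, 1352 to 3552 under variable ventilation, 38 to 244 for the difference of contrasts, 2345 to 4057 within series 14 and 1 to 30 within series 15. The lowest counts came without chronic_VCV_069, chronic_noisy_079, chronic_noisy_075, acute_noisy_047 and either acute_noisy library of series 15.

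Of 191 called genes named by the rule, 94 lost their call in some alternative, 91 of them with a library left out, 57 in the fit on only the libraries compared and 3 with edgeR. Atf3 changed sign without chronic_VCV_067, to 1.33 (adjusted p = 0.0242), and ran down to -1.30 without chronic_VCV_069. The cause of these shifts was not tested. No paired analysis was possible because acute_VCV and chronic_VCV have no replicate number in common. With 3 libraries a group, and fewer reads in chronic_VCV, differences of genes with few reads were measured less precisely.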
